A study of Mus musculus with 24 samples.

Results

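Fas, Cflar, Casp8, Ripk1, Ripk3, Mlkl, Casp1, Casp4 and Gsdmd are 9 genes of death receptor, necroptosis and pyroptosis signalling, taken by name from the 46477 genes of the count table. All 9 passed the filter on low counts, as did 14325 genes in all. Wild-type (WT) male BALB/C mice of 8 weeks underwent either 70% hepatectomy, in which 70% of the liver is removed, or a sham operation limited to a midline laparotomy. G-MDSCs, the CD11b+Ly6G+ fraction of the liver's non-parenchymal cells, were taken with magnetic beads on postoperative day (POD) 1, 2, 3 or 4, and 3 poly-A RNA libraries were made for each of the 8 groups. The hepatectomy groups and the sham groups share strain, sex, age, tissue and sort, and no untreated group was analysed here. The labels do not say whether a library came from 1 animal or a pool, so the p-values measure the spread between these libraries, which may be technical. The design asks how hepatectomy changes the transcripts of these cells on each day.

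Fas is a cell surface death receptor whose ligation recruits an adaptor and the protease caspase 8. Active caspase 8 leads to apoptosis, and CFLAR (c-FLIP), the product of Cflar, binds beside it and limits its activation. Where caspase 8 is inactive, the kinases RIPK1 and RIPK3 can assemble, RIPK3 phosphorylates MLKL, and MLKL opens the plasma membrane in the lytic death called necroptosis. Pyroptosis is a separate lytic death. Caspase 1 is activated by inflammasomes, caspase 4 (also called caspase 11 in mouse) senses cytosolic lipopolysaccharide, and both cut gasdermin D, the pore former encoded by Gsdmd. CD11b+Ly6G+ is also the surface phenotype of neutrophils, short-lived cells in which Fas signalling takes part in turnover.

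The 24 libraries held 10390216 to 16949088 counts each. They fell into 2 sets by 19 markers of liver sinusoidal endothelium, whose mean log2(CPM + 1) was 3.72 to 8.15 in 9 libraries and 10.2 to 11.3 in the other 15. The low set held all 3 hepatectomy POD1 libraries and replicate 1 of hepatectomy POD3 and of hepatectomy POD4. From the sham groups it held POD1 replicates 1, 2 and POD4 replicates 2, 3. At POD1 the summed CPM (counts scaled to library size with the TMM factors) of 14 neutrophil markers were 237008 to 280472 after hepatectomy and 7456 to 125637 after sham, and 2 of 14 were called higher. The 19 endothelial markers summed to 1695 to 1905 CPM after hepatectomy and 2122 to 41388 CPM after sham, with 17 of 19 called lower and none at 0. Macrophage markers were lower in 7 of 10 (535 to 635 CPM after hepatectomy, 1019 to 2421 CPM after sham), and B cell markers in 4 of 4, with Ms4a1 at 0 in all 3 hepatectomy libraries. Stellate cell markers were lower in 4 of 5 (149 to 245 CPM after hepatectomy, 303 to 405 CPM after sham), and of 5 monocyte markers 1 was higher and 3 were lower (144 to 192 CPM after hepatectomy, 94.9 to 985 CPM after sham). The 3 hepatectomy POD1 libraries also stood apart from the other 21 in mitochondrial counts (0.708 to 0.778%, against 1.48 to 3.02%), genes detected (16231 to 16704, against 17479 to 19581) and TMM factor (0.462 to 0.511, against 0.666 to 1.43). The part of these cell mixtures and library signs in the POD1 results was not tested, other than by the score covariate and left-out libraries given with them. In bulk RNA, fewer cells of a type and less RNA per cell cannot be told apart.

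The promoters of the 5 genes called higher at POD1 are shown so that they can be read beside those calls. Each window runs from 250 bases before to 50 bases after the RefSeq start site in GRCm38.p6, 5′ to 3′ on the gene's strand. Capitals mark matches, on either strand, to an NF-kB consensus, a STAT-type motif (TTCNNNGAA), an IRF-type motif (GAAA, any 2 bases, GAAA) or AP-1 (TGANTCA). The windows are chr19:34290409-34290708 (+ strand) for Fas, chr1:58711241-58711540 (+ strand) for Cflar, chr1:58802252-58802551 (+ strand) for Casp8, chr14:55788808-55789107 (- strand) for Ripk3 and chr9:5308599-5308898 (+ strand) for Casp4.
Fas: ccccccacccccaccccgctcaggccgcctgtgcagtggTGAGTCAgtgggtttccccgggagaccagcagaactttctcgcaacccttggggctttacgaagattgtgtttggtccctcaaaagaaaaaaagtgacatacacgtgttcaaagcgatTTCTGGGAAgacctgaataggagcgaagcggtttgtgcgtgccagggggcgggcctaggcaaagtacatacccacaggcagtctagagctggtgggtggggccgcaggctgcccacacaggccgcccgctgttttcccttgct
Cflar: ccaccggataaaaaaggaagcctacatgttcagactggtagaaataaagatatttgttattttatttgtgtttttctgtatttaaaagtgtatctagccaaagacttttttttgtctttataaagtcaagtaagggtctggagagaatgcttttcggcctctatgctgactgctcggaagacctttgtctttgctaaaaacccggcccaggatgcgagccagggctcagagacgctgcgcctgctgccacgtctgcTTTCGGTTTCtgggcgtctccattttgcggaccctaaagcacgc
Casp8: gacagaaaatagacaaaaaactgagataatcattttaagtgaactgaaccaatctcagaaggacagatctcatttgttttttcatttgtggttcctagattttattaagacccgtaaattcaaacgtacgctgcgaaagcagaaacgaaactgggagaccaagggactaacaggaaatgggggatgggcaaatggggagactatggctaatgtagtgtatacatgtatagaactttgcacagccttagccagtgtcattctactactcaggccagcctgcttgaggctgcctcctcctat
Ripk3: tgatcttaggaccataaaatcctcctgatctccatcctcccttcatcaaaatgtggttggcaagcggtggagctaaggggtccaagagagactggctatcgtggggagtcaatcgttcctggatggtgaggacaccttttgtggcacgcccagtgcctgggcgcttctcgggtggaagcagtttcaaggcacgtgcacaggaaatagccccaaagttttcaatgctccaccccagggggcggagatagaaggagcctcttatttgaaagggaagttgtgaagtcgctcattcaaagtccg
Casp4: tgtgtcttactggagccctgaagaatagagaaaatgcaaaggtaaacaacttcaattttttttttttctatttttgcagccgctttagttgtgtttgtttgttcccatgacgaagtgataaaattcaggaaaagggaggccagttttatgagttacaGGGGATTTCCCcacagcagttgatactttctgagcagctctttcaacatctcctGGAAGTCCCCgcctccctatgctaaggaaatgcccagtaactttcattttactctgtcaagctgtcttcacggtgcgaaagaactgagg
The Fas window holds 1 AP-1 match and 1 STAT-type match, of which the STAT-type match starts at base -93 from the start site. The Cflar window holds 1 IRF-type match starting at base 7. The Casp4 window holds 3 NF-kB matches, 2 of which overlap. The Casp8 and Ripk3 windows hold none of the 4 motifs. Of the genes not called at POD1, the Mlkl and Casp1 windows and the first Ripk1 window hold none either. A second Ripk1 window holds 2 STAT-type matches and 1 IRF-type match, so matches were not confined to called genes. Of 32851 windows in the RefSeq table, 8.46% hold the NF-kB consensus, 8.3% the STAT-type, 3.44% the IRF-type and 7.81% the AP-1 motif. Of the 9 genes, 8 had a window, and the Casp8 window lies inside the GENCODE M21 gene interval, which begins at base 58795374 of chromosome 1.

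Hepatectomy at POD1 came with more RNA of the death receptor Fas, of both caspase 8 and its inhibitor Cflar, of the necroptosis kinase Ripk3 and of Casp4, each 2.44 to 5.08 times sham. Of the 9 genes, 5 were called higher and none lower at an adjusted p under 0.05 in edgeR's quasi-likelihood test, where 40.9% of all genes tested were called, 13% as higher and 28% as lower. The other 4, Ripk1, Mlkl, Casp1 and Gsdmd, did not pass. The median log2 difference of all genes tested was -0.42 with TMM scaling (edgeR's correction for RNA composition), and -1.43 with scaling by library size alone. With library size alone the split was 4 genes higher (Fas, Cflar, Ripk3 and Casp4) and 2 lower (Mlkl and Casp1), and Casp8 did not pass, where 4.26% of all genes tested were called higher and 56.3% lower. With the endothelial score as a covariate, Fas, Cflar, Ripk3, Casp8 and Mlkl were higher, and Casp1 and Gsdmd lower, where 20% of all genes tested were higher and 25.2% lower.

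**Figure D1:**
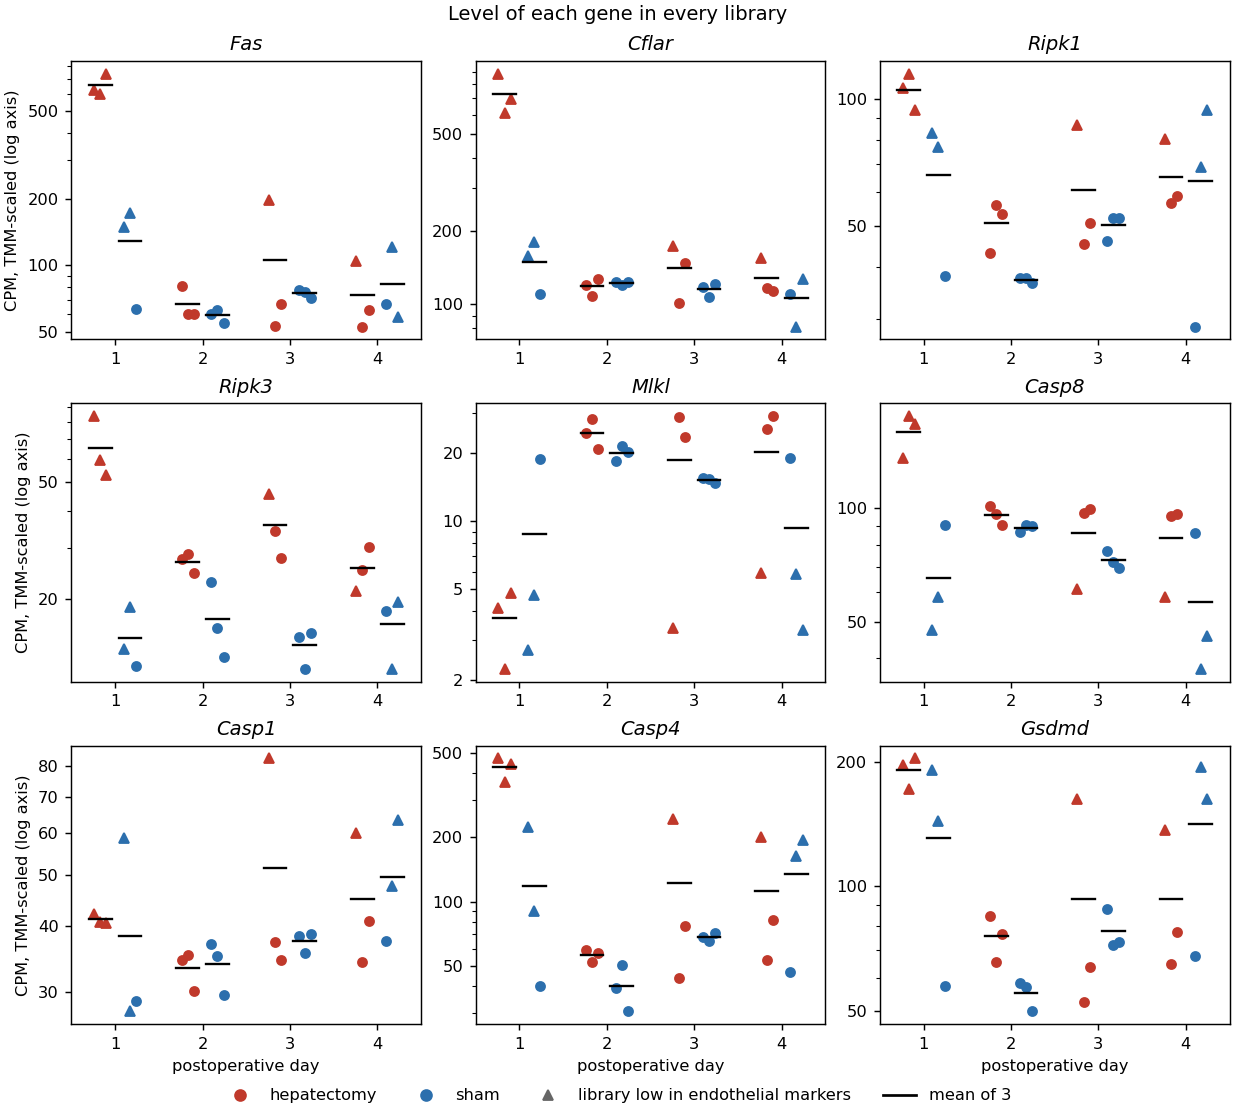
TMM-scaled CPM of each gene in each of the 24 libraries (log axis) by postoperative day, hepatectomy (red) left of sham (blue), triangles for libraries low in endothelial markers, and a line at the mean of 3. At POD1 the hepatectomy libraries lie at 600 to 739 CPM for Fas, 610 to 883 CPM for Cflar and 53.0 to 83.8 CPM for Ripk3, above every sham library of that day in TMM-scaled and unscaled CPM.

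Fas had 622, 600 and 739 CPM in the 3 hepatectomy POD1 libraries, against 149, 174 and 63.4 CPM in the 3 sham POD1 libraries. The groups did not overlap, and the lowest sham library was the one rich in endothelial markers (replicate 3). The log2 difference was 2.35 ± 0.45 (SE), with an adjusted p of 0.00099. It was 1.49 with library size alone, 1.39 with the endothelial score as a covariate and 2.02 without sham POD1 replicate 3, and passed in each. Fas lies at chr19:34290666-34327772 on the + strand (GRCm38), and the small RNA gene Gm27818 overlaps it.

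Cflar, the inhibitor of caspase 8 activation, had 883, 610 and 696 CPM after hepatectomy, against 157, 180 and 110 CPM after sham. Every hepatectomy library was above every sham library, and the log2 difference was 2.29 ± 0.26 (adjusted p = 8.41e-06). Casp8 itself had 136, 176 and 168 CPM after hepatectomy, against 47.5, 58.0 and 90.5 CPM after sham. These groups did not overlap either, although the sham library nearest to hepatectomy was here replicate 3, the endothelium-rich one. The log2 difference of Casp8 was 1.29 ± 0.30 (adjusted p = 0.00363), 2.17 with the endothelial score as a covariate and 0.17 with library size alone (adjusted p = 0.789). Cflar and Casp8 are neighbours on chromosome 1, on the same strand and 36489 bases apart, and Gm37760 overlaps Casp8.

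The ratio of Cflar counts to Casp8 counts was 6.51, 3.47 and 4.15 in the hepatectomy POD1 libraries, against 3.31, 3.11 and 1.22 in the sham POD1 libraries. The lowest hepatectomy ratio lay just above the highest sham ratio. Within the low endothelial set the ratio was 2.84 in hepatectomy POD3 replicate 1 and 2.66 in hepatectomy POD4 replicate 1. In sham POD4 replicates 2 and 3 it was 2.17 and 2.77. It was 2.17 to 6.51 in all 9 low libraries and 1.04 to 1.74 in the other 15, with no overlap. The part of the cell mixtures in the ratio was not tested. Such a ratio does not depend on the library scaling. It sets 2 transcripts of unlike length side by side, so it can be compared between libraries and does not give which of the genes had the higher level.

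Ripk3, the kinase that commits cells to necroptosis, had 83.8, 59.6 and 53.0 CPM after hepatectomy at POD1, against 13.6, 18.8 and 11.9 CPM after sham. The lowest hepatectomy library was over the highest sham library, and the log2 difference was 2.15 ± 0.28 (adjusted p = 3.67e-05). Ripk1, its partner and upstream kinase, had 106, 115 and 94.2 CPM after hepatectomy, against 83.2, 76.8 and 38.1 CPM after sham. These groups did not overlap, but the log2 difference of 0.67 ± 0.34 did not pass (adjusted p = 0.121), and it was -0.19 with library size alone. In all, 6 of the 9 genes had every hepatectomy library above every sham library at POD1, where 21.3% of all genes tested did. In unscaled CPM 4 did (Fas, Cflar, Ripk3 and Casp4), where 6.99% of all genes did. Ripk1 overlaps the antisense gene Serpinb6a and 2 pseudogenes, and the counting's strand setting is not given in the sources used here, so their reads cannot be told apart.

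Mlkl, the substrate of RIPK3 that breaks the membrane, did not pass, and its fitted difference lay below 0. It had 4.15, 2.23 and 4.82 CPM after hepatectomy at POD1, against 2.70, 4.71 and 18.9 CPM after sham. The groups overlapped, and only sham replicate 3, rich in endothelial markers, was high. The log2 difference of -1.25 ± 0.77 (adjusted p = 0.198) was 0.01 without that library, -2.58 with library size alone (adjusted p = 0.0355) and 1.67 with the endothelial score as a covariate (adjusted p = 0.00107). These values rest on 16 to 33 counts of Mlkl in each hepatectomy POD1 library. There was 0.0495, 0.0375 and 0.0909 of an Mlkl count per Ripk3 count in the hepatectomy POD1 libraries, against 0.198, 0.250 and 1.59 in the sham POD1 libraries. This ratio was 0.0375 to 0.505 in the 9 low libraries and 0.809 to 1.59 in the other 15, with no overlap.

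Of the pyroptosis genes only Casp4 was called at POD1. Casp4, the lipopolysaccharide sensor, had 471, 366 and 445 CPM after hepatectomy, against 223, 90.5 and 40.2 CPM after sham. The groups did not overlap, and the sham libraries followed their endothelial score, the lowest Casp4 being in the library with the highest score. The log2 difference was 1.86 ± 0.65 (adjusted p = 0.0292), and 2.71 without sham POD1 replicate 1. The call was lost without sham POD1 replicate 3 (adjusted p = 0.126), sham POD1 replicate 2 (0.0857), hepatectomy POD1 replicate 1 (0.0694) or hepatectomy POD1 replicate 3 (0.0594), in a fit of the 2 POD1 groups alone (0.0641), and with the endothelial score as a covariate, where the log2 difference was 0.26 (0.443).

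Casp1, the inflammasome caspase, had 42.2, 40.8 and 40.5 CPM in the hepatectomy POD1 libraries, against 58.5, 27.6 and 28.9 CPM in the sham POD1 libraries. The hepatectomy libraries lay within the sham range, and the log2 difference of 0.10 ± 0.32 (adjusted p = 0.816) was -0.79 with library size alone (adjusted p = 0.00764). Gsdmd, the pore former, had 196, 172 and 203 CPM after hepatectomy, against 191, 144 and 57.4 CPM after sham. These groups overlapped, and the log2 difference of 0.54 ± 0.44 (adjusted p = 0.33) was -0.27 with library size alone and -0.65 with the endothelial score as a covariate (adjusted p = 0.0038). Casp1 and Casp4 are related genes 1562 bases apart on chromosome 9, and how reads that fit both were counted is not given, so their levels carry that doubt. There were 11.2, 8.98 and 11 Casp4 counts per Casp1 count in the hepatectomy POD1 libraries, against 3.82, 3.28 and 1.39 in the sham POD1 libraries, with no overlap. This ratio also separated the 9 low libraries (2.97 to 11.2) from the other 15 (1.03 to 2.24).

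**Figure D2:**
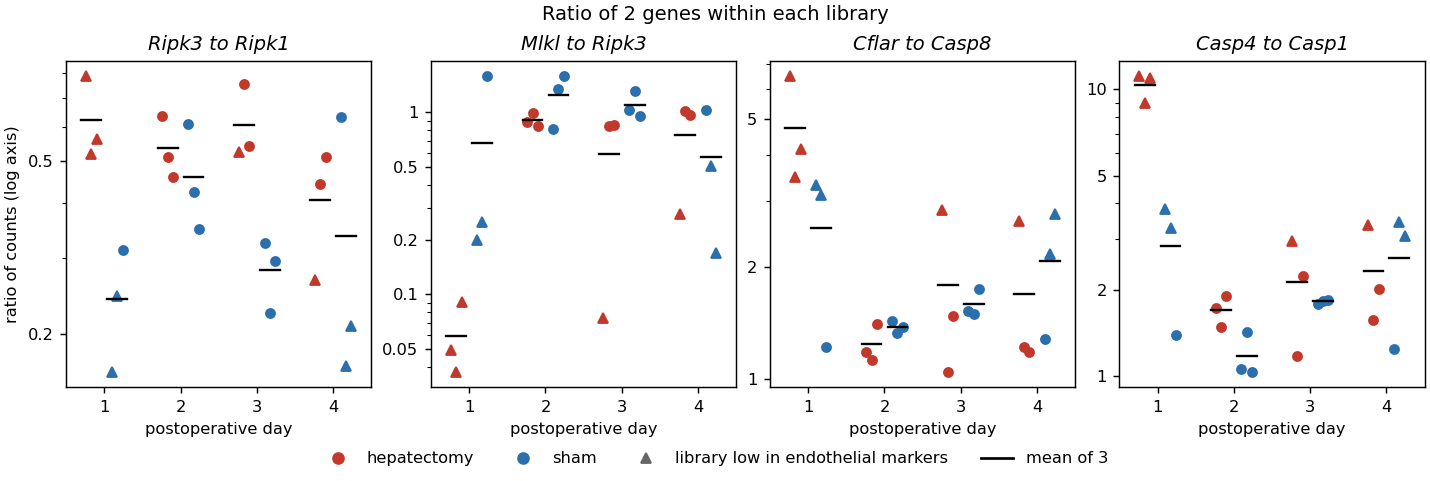
Ratio of the counts of 2 genes in each library (log axes) by postoperative day, hepatectomy (red) left of sham (blue), triangles for libraries low in endothelial markers, and a line at the mean of 3. At POD1 Casp4 to Casp1 averages 10.4 after hepatectomy and 2.83 after sham, and Mlkl to Ripk3 averages 0.0593 after hepatectomy and 0.679 after sham. Both ratios also separate the 9 libraries low in endothelial markers from the other 15, which include sham POD1 replicate 3.

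After POD1 no difference between hepatectomy and sham in the 9 genes passed on a single day. At POD2 none of the 9 genes was called, where 14 genes of the whole table were (0.0977%). At POD3 none was called, where 3 genes were (0.0209%), and at POD4 none was, where no gene passed (0%). At an unadjusted p under 0.05, the count was 1 of 9 on each of these days, Ripk3, where 8.87%, 7.58% and 4.81% of all genes were at that level on POD2, POD3 and POD4. DESeq2 called none at POD2 (1.47% of all genes), Ripk3 at POD3 (2.06%) and none at POD4 (0.237%). limma voom with quality weights called 3 of 9 at POD2, 3 at POD3 and 5 at POD4, where it called 32.7%, 26.4% and 50.6% of all genes. A further edgeR fit left out 5 libraries, every one low in endothelial score at POD3 and POD4 and the endothelium-rich sham POD1 replicate 3. It called 3 of 9 at POD2 and 2 at POD3, where it called 25.9% and 7.97% of all genes. Sham POD4 kept only replicate 1, the endothelium-rich library of its group, so calls at POD4 are not given.

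**Figure D3:**
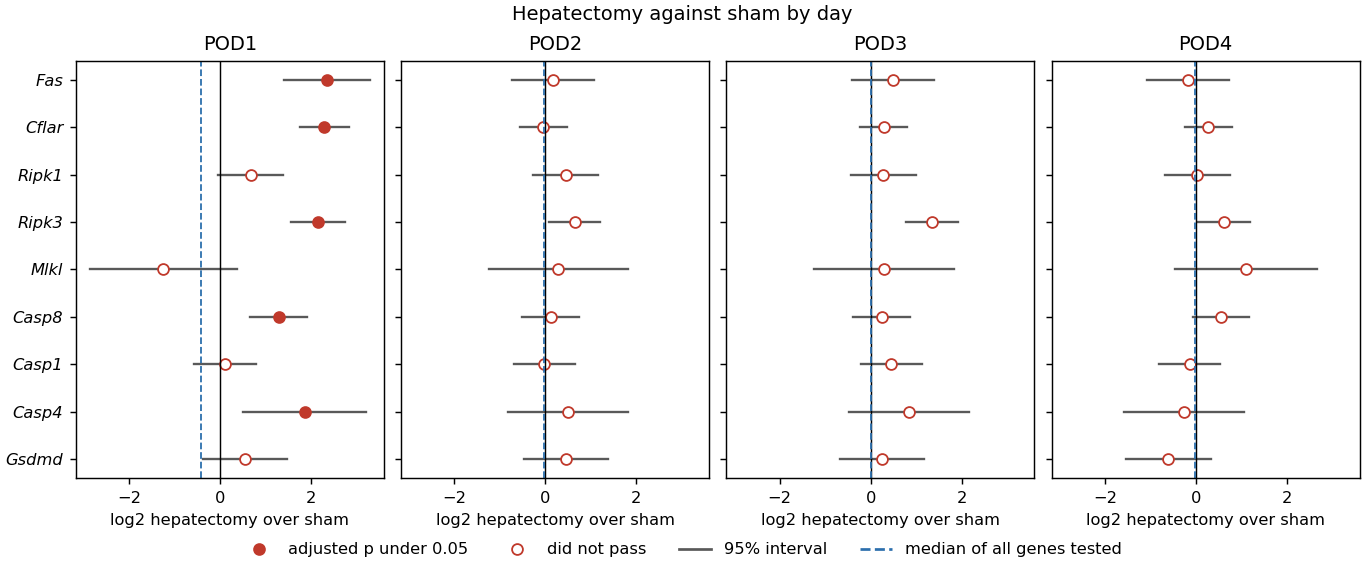
Log2 hepatectomy over sham of each gene on POD1 to POD4 with its 95% interval, filled where the adjusted p is under 0.05, with a dashed line at the median of all genes tested. The 5 filled points are all at POD1 with TMM scaling, and with library size alone Ripk1, Casp1 and Gsdmd at POD1 lie under 0 instead of over it.

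For Ripk3, every hepatectomy library lay above every sham library of the same day, on all 4 days, in TMM-scaled CPM. At POD2 it had 27.5, 28.6 and 24.6 CPM after hepatectomy, against 22.9, 16.03 and 12.8 CPM after sham. At POD3 it had 45.5, 34.1 and 27.6 CPM after hepatectomy, against 14.97, 11.7 and 15.4 CPM after sham. At POD4 it had 21.4, 25.1 and 30.1 CPM after hepatectomy, against 18.3, 11.6 and 19.6 CPM after sham. The groups were closest at POD2 and POD4, where in unscaled CPM they overlapped, and farthest apart at POD1 and POD3, where in unscaled CPM they did not. Of 14325 genes, 19 (0.133%) had every hepatectomy library above every sham library on all 4 days, and Ripk3 was the only one of the 9. Monocyte markers lay the same way on the later days, their summed CPM being 402 to 758 after hepatectomy and 50.1 to 145 after sham at POD2, 288 to 857 after hepatectomy and 114 to 213 after sham at POD3, and 654 to 755 after hepatectomy and 118 to 527 after sham at POD4. None of these 5 markers was called on those days. At POD2 neutrophil markers were also apart, at 20274 to 31764 CPM after hepatectomy and 3807 to 9083 CPM after sham. The part of these cells in the Ripk3 values was not tested.

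The difference in Ripk3 averaged over the 4 days was 1.19 ± 0.14 on the log2 scale (edgeR, adjusted p = 4.56e-05), the 16th lowest p of all genes tested. It passed without each library in turn, in 24 of 24 fits, and under 9 of 9 other settings. On single days the log2 difference of Ripk3 was 0.64 ± 0.27 at POD2 (adjusted p = 0.496), 1.35 ± 0.28 at POD3 (adjusted p = 0.115) and 0.63 ± 0.27 at POD4 (adjusted p = 0.914). Among the 15 endothelium-rich libraries alone, Ripk3 lay at 24.6 to 34.1 CPM in the 7 hepatectomy libraries of POD2 to POD4, and at 11.7 to 22.9 CPM in the 8 sham libraries. These ranges did not overlap, but in unscaled CPM they did (28.0 to 48.5 after hepatectomy, 14.1 to 31.2 after sham). The 8 sham libraries were those of POD2 and POD3, POD1 replicate 3 and POD4 replicate 1, so the days were not matched. The share of all genes with such a gap was not computed. The endothelial scores were 10.2 to 10.7 in these 7 hepatectomy libraries and 10.6 to 11.3 in the 8 sham libraries. The ratio of Ripk3 to Ripk1 counts at POD3 was 0.526, 0.753 and 0.544 after hepatectomy, against 0.324, 0.224 and 0.294 after sham, with no overlap. The ratio overlapped at POD2 (0.459 to 0.637 after hepatectomy, 0.349 to 0.609 after sham) and at POD4 (0.266 to 0.512 after hepatectomy, 0.169 to 0.634 after sham).

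Averaged over the days, 4 of the 9 genes were higher after hepatectomy, where 14% of all genes tested were called, 6.04% as higher. Beside Ripk3 these were Cflar at 0.70 ± 0.12 (adjusted p = 0.00122), Fas at 0.71 ± 0.22 (adjusted p = 0.0343) and Casp8 at 0.55 on the log2 scale (adjusted p = 0.0189). Leaving out each library in turn, Ripk3, Cflar and Casp8 passed in 24 of 24 fits and Fas in 11. On POD2 to POD4 the log2 differences of single days were -0.17 to 0.50 for Fas and -0.05 to 0.29 for Cflar. With library size alone 2 of the 9 passed, where 21.3% of all genes did, and with no low-count filter 2 passed, where 4.96% did.

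The operation's effect differed between days for 3 of the 9 genes in edgeR's interaction test, Cflar (adjusted p = 0.00136), Ripk3 (0.036) and Fas (0.0425), where 8.68% of all genes tested passed. Leaving out each library in turn, Cflar passed in 24 of 24 fits, Ripk3 in 9 and Fas in 6. For Cflar the effect at POD1 was larger than later, the difference of effects being -2.34 for POD2 minus POD1, -2.00 for POD3 minus POD1 and -2.02 for POD4 minus POD1 on the log2 scale.

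Between days, levels were also compared within each operation. After hepatectomy 6 of the 9 genes differed between days, where 44.8% of all genes tested did. Fas fell by 3.28 at POD2 relative to POD1 on the log2 scale, Casp4 fell by 2.92, Cflar fell by 2.62, Ripk3 fell by 1.28 and Casp8 fell by 0.73, while Mlkl rose by 2.71 (adjusted p = 0.00891). In the same comparison Gsdmd fell by 1.33 (adjusted p = 0.01845) and Ripk1 by 1.05 (adjusted p = 0.0164), though neither passed the test between all days. Casp1 did not pass, and 56.4% of all genes tested were called. For Casp8, Ripk3, Ripk1 and Gsdmd the fall is one of TMM-scaled levels. In unscaled CPM Casp8 averaged 111 ± 7 at hepatectomy POD2 and 76.8 ± 13.6 at hepatectomy POD1, and Ripk3 averaged 31.2 ± 3.3 at POD2 and 31.3 ± 7.1 at POD1. Unscaled Ripk1 was at 48.7 to 67.5 CPM at POD2 and 43.7 to 58.6 CPM at POD1. Unscaled Gsdmd was at 79.6 to 95.5 CPM at POD2 and 87.9 to 94.5 CPM at POD1. Leaving out each library in turn, the test between days passed in 6 of 24 fits for Mlkl, 19 for Casp8 and 24 for each of Fas, Cflar, Ripk3 and Casp4. After sham none of the 9 passed between days in edgeR, where no gene did (0%). At an unadjusted threshold of 0.05, Gsdmd was the 1 gene of the 9 to pass. DESeq2 called 0 of the 9, where it called 10.7% of all genes. limma voom with quality weights called 7 of the 9 and 70.1% of all genes, and edgeR without the 5 libraries set apart by their endothelial score called 7 of the 9 and 64.9% of all genes. Whether the changes between days are unlike after hepatectomy and after sham is what the interaction test above compares. It does not ask in which operation they are larger.

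The levels were also set beside the endothelial score across days and operations. Mlkl was at 2.23 to 5.93 CPM in the 9 low libraries and 14.7 to 29.1 CPM in the other 15, with no overlap. Ripk1 (68.8 to 115 CPM against 28.9 to 58.7 CPM), Casp4 (90.5 to 471 CPM against 30.5 to 82.1 CPM) and Gsdmd (137 to 203 CPM against 49.9 to 88.3 CPM) were high in the 9 low libraries and did not overlap the other 15. These are 4 of the 9 genes, where 37.8% of all genes tested separated the 2 sets, so the count is near that of genes at large. In unscaled CPM only Mlkl did, at 1.14 to 4.80 CPM against 18.2 to 40.9 CPM, where 41.5% of genes did.

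Within the 9 low libraries, 6 of the 9 genes (Fas, Cflar, Casp8, Ripk1, Ripk3 and Casp4) were higher in all 3 hepatectomy POD1 libraries than in the other 6, where 18.7% of all genes tested were. In unscaled CPM 3 were (Fas, Cflar and Casp8), where 5.84% were. Fas was at 600 to 739 CPM in the 3 hepatectomy POD1 libraries, at 105 and 197 CPM in the 2 later hepatectomy libraries and at 58.2 to 174 CPM in the 4 sham libraries of that set. Casp8 was at 136 to 176 CPM at hepatectomy POD1, at 58.0 and 61.2 CPM in the later hepatectomy libraries and at 37.4 to 58.0 CPM after sham. Cflar (610 to 883 CPM) and Ripk3 (53.0 to 83.8 CPM) at hepatectomy POD1 were likewise above the other low libraries, whose highest values were 180 CPM for Cflar and 45.5 CPM for Ripk3. In unscaled CPM Ripk3 was at 24.6 to 38.7 at hepatectomy POD1, under the 39.97 of hepatectomy POD3 replicate 1. The endothelial score of the 3 hepatectomy POD1 libraries, 3.72 to 4.51, was itself below that of all other libraries, whose lowest was 5.78. The part of this remaining gap in the results was not tested.

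**Figure D4:**
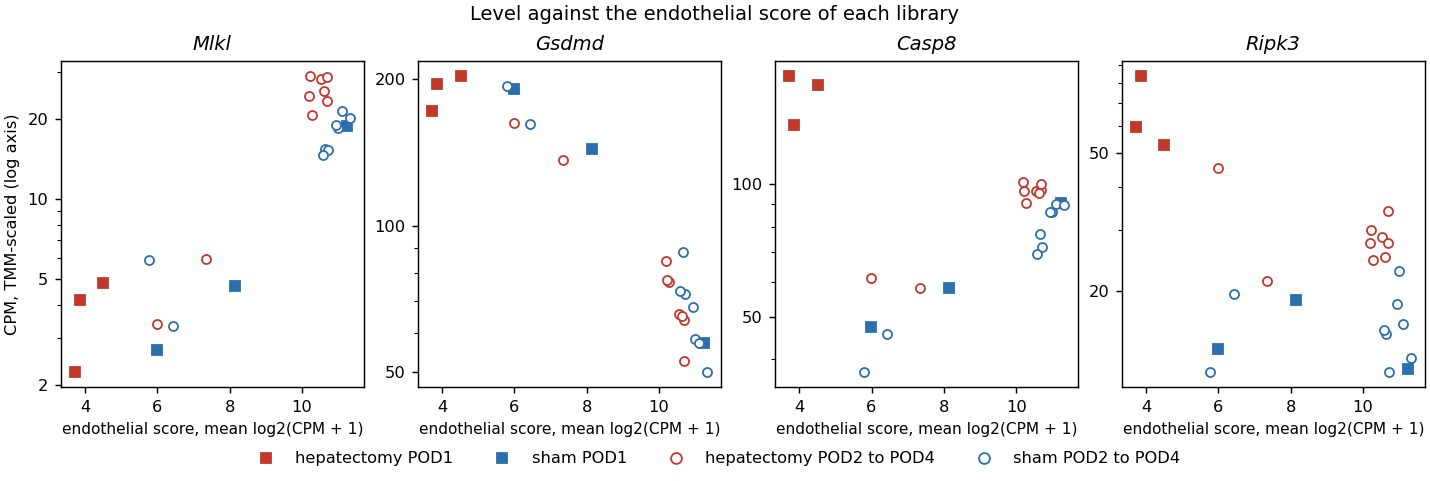
TMM-scaled CPM (log axis) of Mlkl, Gsdmd, Casp8 and Ripk3 against the endothelial score, the mean log2(CPM + 1) of 19 markers, for each of the 24 libraries, hepatectomy red, sham blue, filled squares for POD1 and open circles for later days. Mlkl and Gsdmd separate the 9 low from the other 15 libraries (Gsdmd not in unscaled CPM), while Casp8 and Ripk3 at hepatectomy POD1 stand above the other low libraries (Ripk3 not in unscaled CPM).

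Levels per kilobase divide by the union of annotated exons, 12669 bases for Cflar and 8344 for Ripk1, against 1497 to 3710 for the other genes. The transcripts present were not determined, and where they are shorter than the union these values are too low. The median level over the 24 libraries was highest for Fas (33.6 CPM per kb), Gsdmd (32.4) and Casp8 (31.1). Casp1 (25.0), Casp4 (18.8), Cflar (9.67), Ripk3 (9.66), Mlkl (7.37) and Ripk1 (6.55) followed. Every gene overlapped its neighbours in this order in its range over the libraries, so the order between neighbours is not settled. At hepatectomy POD1 Fas averaged 317 ± 36 CPM per kb (SD, n = 3), against 62.4 ± 28.0 CPM per kb at sham POD1.

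Of 71 other genes listed for these pathways, 67 were tested. At POD1 23 were higher, 10 lower and 34 did not pass, where 13% of all genes tested were higher and 28% lower. The median log2 of the 67 was 0.66, against -0.42 for all genes. With library size alone 11 were higher and 23 lower, with a median of -0.27 against -1.43 for all genes, of which 4.26% were higher and 56.3% lower. Without sham POD1 replicate 3, 11 were higher and 7 lower, where 9.01% of all genes were higher and 13.6% lower. On POD2, POD3 and POD4 none of the 67 was called, where 0.0977%, 0.0209% and 0% of all genes were. At POD1 with TMM scaling, 6 of 14 receptor adaptors and ubiquitin regulators were higher and 1 lower. Of the inflammasome sensors and adaptors 6 of 14 were higher and 3 lower, and of the necroptosis sensors and partners 3 of 7 were higher and 2 lower. Of the death ligands and receptors 1 of 8 was higher and 1 lower. Of the executioner caspases and their mitochondrial link 2 of 8 were higher and 2 lower. Among kinases that restrain RIPK1 2 of 6 were higher and 0 lower. Pyroptosis effectors, substrates and inhibitors were higher in 3 of 10 and lower in 1. The shares of all genes beside these lists are the same 13% higher and 28% lower.

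**Figure D5:**
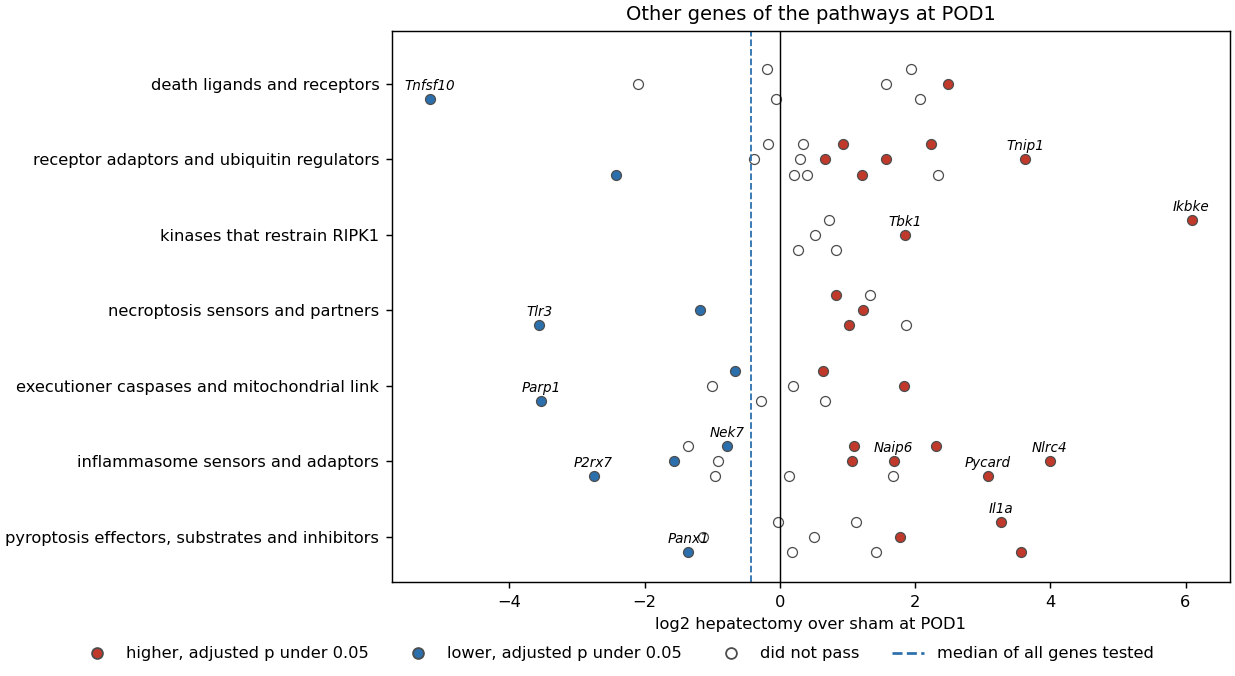
Log2 hepatectomy over sham at POD1 of the 67 other pathway genes tested, 1 point a gene, by list, red for higher, blue for lower and open for not passed, with a dashed line at the median of all genes (-0.42). With TMM scaling 23 genes are higher and 10 lower, where 13% and 28% of all genes tested are. With library size alone 11 are higher and 23 lower, where 4.26% and 56.3% are. The labelled points are the named genes and Ikbke.

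Among death ligands, Tnf averaged 1787 ± 512 CPM at hepatectomy POD1 and 464 ± 357 CPM at sham POD1, a difference that did not pass (adjusted p = 0.0886) and was -0.15 on the log2 scale with the endothelial score as a covariate. Tnfsf10, which encodes TRAIL, was lower, at 1.13 ± 0.67 CPM after hepatectomy and 40.4 ± 52.6 CPM after sham (adjusted p = 0.00455). Its log2 difference was -5.17, and -3.19 without sham POD1 replicate 3 (adjusted p = 0.0458), and it did not pass with that covariate (adjusted p = 0.108). Fasl, the ligand of Fas, was too low to test, at 0.687 CPM after hepatectomy and 0.187 CPM after sham. Tnfrsf1a, the receptor of TNF, averaged 847 ± 35 CPM after hepatectomy and 877 ± 332 CPM after sham (adjusted p = 0.909).

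Of the adaptors and regulators, Fadd, which links Fas to caspase 8, was lower (log2 -2.42 ± 0.88, adjusted p = 0.0342), but not without sham POD1 replicate 3 (-0.75, adjusted p = 0.525), and it was 0.85 with the endothelial score as a covariate. Tnip1, which binds the deubiquitinase A20, was higher by 3.63 ± 0.63 (adjusted p = 0.000428). Tnfaip3, which encodes A20, was at 2.34 ± 0.95 and did not pass (adjusted p = 0.0546). Xiap, an inhibitor of caspases, was at 0.40 ± 0.23 (adjusted p = 0.176) and at -0.69 with library size alone. Tbk1, a kinase that restrains RIPK1, had 297, 236 and 270 CPM after hepatectomy, against 73.8, 93.2 and 55.5 CPM after sham, with a log2 difference of 1.85 ± 0.24 (adjusted p = 3.25e-05). Ikbke, the related kinase, had the highest log2 difference of the 67 (6.09 ± 1.24, adjusted p = 0.00148) and was named after its value was seen.

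Upstream of necroptosis, Zbp1, a nucleic acid sensor that engages RIPK3, was at 1.87 ± 0.79 (adjusted p = 0.0639), and Tlr3, a sensor of double-stranded RNA, was lower at -3.56 ± 1.05 (adjusted p = 0.0132) but not without sham POD1 replicate 3 (adjusted p = 0.237), and was 0.45 with the endothelial score as a covariate. Parp1, a caspase substrate that acts in DNA repair, was lower (-3.53 ± 0.80, adjusted p = 0.00303), at -2.42 without sham POD1 replicate 3 (adjusted p = 0.0265), and did not pass with the endothelial score as a covariate (-0.88, adjusted p = 0.0554), and Bid, which caspase 8 cuts to reach mitochondria, was at -1.0 ± 0.59 (adjusted p = 0.175).

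Among inflammasome genes, Nlrc4, the sensor adaptor of the NAIP receptors, had 23.8, 13.3 and 30.4 CPM after hepatectomy, against 1.12, 2.22 and 0.912 CPM after sham. Its log2 difference was 3.99 ± 0.52 (adjusted p = 3.48e-05). Pycard, the adaptor ASC, averaged 48.9 ± 5.5 CPM after hepatectomy and 5.83 ± 3.06 CPM after sham (adjusted p = 0.000132), and Naip6 was higher by 1.69 ± 0.31 (adjusted p = 0.000705), a call not made with library size alone (adjusted p = 0.132). Nlrp3, the sensor of potassium efflux, averaged 3111 ± 265 CPM after hepatectomy and 977 ± 820 CPM after sham and did not pass (adjusted p = 0.104). Nek7, a partner of NLRP3, was lower at -0.77 ± 0.15 (adjusted p = 0.00133), and P2rx7, the ATP receptor upstream of it, was lower at -2.75 ± 0.57 (adjusted p = 0.00177) and at -1.98 without sham POD1 replicate 3. Nlrc4, Pycard and Tbk1 were higher, and Nek7 and P2rx7 lower, also with library size alone and without sham POD1 replicate 3.

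Of the pyroptosis substrates, Il1a averaged 998 ± 121 CPM after hepatectomy and 104 ± 29 CPM after sham (adjusted p = 0.000284). Il1b averaged 25933 ± 5290 CPM after hepatectomy and 11907 ± 9263 CPM after sham (adjusted p = 0.288), and its log2 difference was -0.63 with the endothelial score as a covariate. Il18 averaged 5.01 ± 1.01 CPM after hepatectomy and 3.59 ± 2.53 CPM after sham (adjusted p = 0.506). Serpinb1a, an inhibitor of neutrophil proteases and inflammatory caspases, was higher by 3.57 ± 1.27 (adjusted p = 0.0323), but not without sham POD1 replicate 3 (adjusted p = 0.11). Panx1, a channel cut open by caspases, was lower at -1.36 ± 0.43 (adjusted p = 0.0187). It was at 0.644 ± 0.057 CPM after hepatectomy and 1.67 ± 0.63 CPM after sham. These values rest on 5, 5 and 4 counts in the hepatectomy POD1 libraries and 12, 26 and 25 in the sham POD1 libraries.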

How the data were processed

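Poly-A RNA was sequenced in liver CD11b+Ly6G+ cells (24 libraries). The deposited values are raw counts, 1 row a gene, made by the authors with cutadapt, STAR 2.4.2a and HTSeq on GRCm38, per the submitters' processing notes; strand setting and versions of the other tools are not given in the sources used here. Groups were taken from the sample titles. Genes were filtered with filterByExpr, scaled with TMM and fitted over all 8 groups with 16 residual degrees of freedom in edgeR 4.0.16 (R 4.3.3), with Benjamini-Hochberg adjustment over 14325 genes and a threshold of 0.05. CPM use the TMM-scaled library size unless called unscaled. Standard errors are the log2 difference divided by the root of F. Intervals cover 95%. Values per kilobase use the union of GENCODE M21 exons. Totals of 10390216 to 16949088 counts set the precision, and counting error and library spread enter the same test. No 2 libraries of a group agreed within counting noise (chi-square per gene 9.63 to 772). Alternatives were DESeq2 1.42.0, limma 3.58.1 voom with quality weights, other scalings and filters, a replicate block, the endothelial score as a covariate and left-out libraries. The scripts were tested on simulated data. The 9 genes, the pathway lists and the markers were chosen with earlier results of these data known. Pathway genes named were those past the threshold at POD1, up to 6 in each direction by lowest p, and 14 given always; some genes of that rule are not reported here. Settings tried on the pathway genes were chosen after seeing the data. Promoter sequences are from RefSeq (GRCm38.p6).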

Additional observations from a re-analysis of the deposited data

Results flagged for a closer look

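The effect of the operation differed between the 4 days, by edgeR's interaction test, for 3 of the 9 genes, where 8.68% of all genes tested passed. For Fas the adjusted p was 0.0425, with log2 differences of 2.35 at POD1, 0.17 at POD2, 0.50 at POD3 and -0.17 at POD4. For Cflar it was 0.00136, with 2.29, -0.05, 0.29 and 0.27 on the same days. For Ripk3 it was 0.036, with 2.15, 0.64, 1.35 and 0.63. Among the named pathway genes the interaction's adjusted p was 0.00353 for Tbk1, 0.00484 for Nlrc4, 0.0127 for Pycard, 0.0353 for Tnip1 and 0.043 for Naip6, which were higher at POD1. It was 0.0406 for Nek7, 0.0262 for P2rx7 and 0.0324 for Parp1, which were lower at POD1. Named by the same rule, Il1a (0.051), Panx1 (0.0941), Tnfsf10 (0.104) and Tlr3 (0.144) did not pass. These pathway genes were named for their low p at POD1 in the same libraries. That choice favours a difference between days, so their interaction values are no separate support. All 3 hepatectomy POD1 libraries have low endothelial scores, and the part of this in the difference between days was not tested.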

How the results depend on the processing

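Of 576 recomputed differences of the 9 genes, 487 kept their direction and side of the threshold, 25 gained and 7 lost a call in the same direction, and 57 changed sign, 4 of these past 0.05. The POD1 count of 5, which takes calls in either direction, stayed within 1.5 times under every setting (4 to 6 when each library was left out). The genes behind it changed. With library size alone Mlkl and Casp1 were called lower and Casp8 was not called. With the endothelial score as a covariate Mlkl was called higher, Casp1 and Gsdmd lower, and Casp4 was not called. Leaving out each library, the count stayed 0 to 0 on POD2, POD3 and POD4, and was 3 to 5 for the mean of the days, 1 to 4 for the interaction, 4 to 8 between days after hepatectomy and 0 to 3 between days after sham (1 without sham POD1 replicate 3, 3 without sham POD4 replicate 1). The interaction count fell to 1 without any 1 of 14 libraries. limma voom with quality weights called 3 genes at POD2, 3 at POD3, 5 at POD4, 8 in the interaction and 7 between days after sham, where it called 32.7%, 26.4%, 50.6%, 72.4% and 70.1% of all genes. The fit without 5 libraries left out every one low in endothelial score at POD3 and POD4 and the endothelium-rich sham POD1 replicate 3. In it 3 genes were called at POD2 and 2 at POD3, where 25.9% and 7.97% of all genes were. In sham POD4 the libraries left out, replicates 2 and 3, were the majority of the group. That fit leaves sham POD4 with 1 library, whose spread is assumed to be that of the other groups. Its counts for POD4, the mean of the days, the interaction and the days after sham are therefore not given. A fit of the groups compared alone called 2 at POD2, where it called 28.9% of all genes, and DESeq2 called 1 at POD3, where it called 2.06%. The endothelial score as a covariate gave 2 at POD3 and 5 in the interaction, where 8.98% and 35.7% of all genes were called. Library size alone left 2 for the mean of the days (21.3% of all genes). With no low-count filter 2 were left for the mean (4.96%) and 1 in the interaction (2.43%). The cause of these changes was not tested.

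The labels do not say what a replicate number shares. Of 12 same-numbered pairs, 3 correlated above 0.1 in their deviations from group means, with r of -0.888 to 0.226. The split of libraries by endothelial score also enters these deviations, so this check cannot exclude a shared batch. With a replicate block the counts were 5 at POD1, 0 at POD2, POD3 and POD4, 4 for the mean of the days, 2 in the interaction, 6 between days after hepatectomy and 0 after sham. That fit called 37.7% of all genes at POD1, 12.1% for the mean, 6.28% in the interaction and 41.4% between days after hepatectomy.

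Signs of log2 differences turned as follows. With library size alone the POD1 value was -0.19 for Ripk1, -0.79 for Casp1 and -0.27 for Gsdmd, the POD2 value -0.084 for Fas and -0.14 for Casp8, and the POD4 value 0.048 for Fas, 0.12 for Casp1 and 0.037 for Casp4. With the endothelial score as a covariate the POD1 value was -0.25 for Ripk1, 1.67 for Mlkl, -0.66 for Casp1 and -0.65 for Gsdmd, the POD2 value -0.019 for Fas, the POD3 value -0.078 for Fas, -0.12 for Ripk1, -0.17 for Casp4 and -0.40 for Gsdmd, and the POD4 value 0.16 for Fas, 0.15 for Casp1 and 0.49 for Casp4. Without the 5 libraries Casp1 was at -0.059 on POD1 and -0.060 on POD3, Fas at -0.32, Ripk1 at -0.062, Casp4 at -0.17 and Gsdmd at -0.42 on POD3, and Casp4 at 0.54 and Gsdmd at 0.064 on POD4. With voom, POD3 values were -0.20 for Fas, -0.019 for Ripk1, -0.064 for Casp1 and -0.28 for Gsdmd, and Ripk1 at POD4 was -0.31, -0.0102 with DESeq2, -0.0108 with its size factors in edgeR and -0.061 in the fit of the groups alone. Leaving out single libraries, ranges that cross 0 were, at POD1, -0.090 to 0.54 for Casp1 and -1.67 to 0.0066 for Mlkl; at POD2, -0.12 to 0.043 for Casp1 and -0.10 to 0.0080 for Cflar; at POD3, -0.061 to 0.67 for Casp1, -0.17 to 1.24 for Casp4, -0.32 to 0.81 for Fas, -0.42 to 0.53 for Gsdmd, -0.17 to 0.78 for Mlkl and -0.062 to 0.45 for Ripk1; and at POD4, -0.39 to 0.083 for Casp1, -0.99 to 0.10 for Casp4, -0.50 to 0.23 for Fas and -0.31 to 0.43 for Ripk1.

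For the pathway genes at POD1, settings chosen after seeing the data gave 11 higher and 23 lower with library size alone, 13 higher and 16 lower with the endothelial score as a covariate, 35 higher and 14 lower without the 5 libraries, and 11 to 27 higher and 5 to 10 lower when a POD1 library was left out. Higher calls were 11 without sham POD1 replicate 3 and 13, 15 and 13 without hepatectomy POD1 replicates 1, 2 and 3, and lower calls were 5 without replicate 1 and 5 without replicate 3 of that group. Signs turned with the score for Tlr3 (0.45), Tnf (-0.15), Fadd (0.85), Nlrp3 (-0.31), Il1b (-0.63) and Il18 (-0.39), and with library size for Xiap (-0.69) and Il18 (-0.24).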

Other observations

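Over the 24 libraries each of the 9 genes was set beside the tested genes of most like pattern, by Pearson's r of log2 CPM. The libraries fall into 2 sets by endothelial score, which every pair shares, so r is given also within the other 15 libraries. Mlkl was most like Nup205, a nuclear pore gene (0.980 over 24 libraries, 0.897 within the 15), and Gsdmd most like Myl12b, a myosin light chain gene (0.987 over 24, 0.910 within the 15). Ripk1 was most like Cbl, a ubiquitin ligase gene (0.966 over 24, 0.915 within the 15). Ripk3 had the lowest likeness to any gene of the 9, with Dera at 0.891 over 24 and 0.815 within the 15. Fas was most like Wtap (0.985 over 24, 0.588 within the 15) and next Relb, an NF-kB subunit gene (0.979 over 24, 0.179 within the 15), so that this likeness rests mainly on libraries outside the 15.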
